A study of Drosophila melanogaster with 2 samples.

Results

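The genes described here code for the subunits of the mitochondrial respiratory chain and of ATP synthase. They were chosen by symbol: every protein-coding gene on the nuclear chromosomes whose name begins with ND- (complex I), UQCR- (complex III), COX and a digit (complex IV) or ATPsyn (complex V), with SdhA to SdhD for complex II. That gave 84 of 13968 genes, 63 subunit genes and 21 paralogs, meaning genes named as a subunit with an added L, such as ND-24L. The rule leaves out subunits with other names, such as blw, which are given apart. Promoter occupancy by CG10462, the product of a Drosophila melanogaster gene known only by its number, was read from ChIP-seq peak lists. Per the labels, a fly line stably carried CG10462 joined to GFP at its C-terminus, and chromatin was precipitated with an antibody to GFP, although the antibody field reads CG10462. The 1 group comprised 2 biological replicates, numbered 2 and 3, of whole embryos aged 0 to 24 h with the sexes pooled, sonicated to 200 to 800 bp. Each replicate has a protocol document of its own, and no condition other than the fusion was labelled. An untagged or input library was not analysed here. Whole embryos mix cell types, so strong binding in few cells and weak binding in many cannot be told apart.

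Complex I takes electrons from NADH and complex II takes them from succinate. Both pass them through complex III and cytochrome c to complex IV, which reduces oxygen, while the protons pumped on the way drive ATP synthase. Most subunits are coded in the nucleus and the remainder in mitochondrial DNA, so both genomes must be expressed in proportion, and in flies several subunits have a second gene known for expression in the testis.

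A member was called occupied when the summit of a peak in the optimal list lay within 500 bp of any of its transcript starts. The authors made this list by comparing peak ranks between replicates. It equals the 2993 strongest peaks of the pooled reads, so a listed peak need not recur in both replicates. All 17 summits at members were overlapped in each replicate's own longer list. Among 1586 summits at other promoters, 2 overlapped nothing in the replicate 2 list and 13 overlapped nothing in the replicate 3 list. Up to 60 bases to each side of a summit were read for the 8 members with the strongest summits among those whose own start was the nearest, and bases inside annotated exons were cut away. The first 6 windows printed show the feature shared by most member summits, runs of at least 7 A or T, which are in capitals. The COX6B window, which lies wholly between opposing starts, was added after its values were seen because it holds no such run. Each is in build dm6, reads 5′ to 3′ in the direction of the named gene, and carries its name and position.
COX8 chr3L:21539503-21539623, minus strand: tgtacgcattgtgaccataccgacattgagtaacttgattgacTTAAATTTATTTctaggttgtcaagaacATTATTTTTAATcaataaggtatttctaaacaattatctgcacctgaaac
SdhC chr3R:11209920-11210040, minus strand: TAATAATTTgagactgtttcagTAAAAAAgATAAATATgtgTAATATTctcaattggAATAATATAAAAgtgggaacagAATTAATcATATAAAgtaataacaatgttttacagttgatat
ATPsynE chr3R:14326876-14326946, plus strand: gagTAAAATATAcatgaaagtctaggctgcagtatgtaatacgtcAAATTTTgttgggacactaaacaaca
ND-51 chr2L:6062759-6062879, minus strand: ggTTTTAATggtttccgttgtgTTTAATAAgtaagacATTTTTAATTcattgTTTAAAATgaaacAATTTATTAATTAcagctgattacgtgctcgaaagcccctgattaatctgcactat
ND-42 chr3R:22027544-22027664, plus strand: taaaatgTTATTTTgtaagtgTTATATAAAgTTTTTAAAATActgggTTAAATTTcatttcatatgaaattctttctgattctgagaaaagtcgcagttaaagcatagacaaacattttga
ND-MNLL chrX:7893831-7893951, minus strand: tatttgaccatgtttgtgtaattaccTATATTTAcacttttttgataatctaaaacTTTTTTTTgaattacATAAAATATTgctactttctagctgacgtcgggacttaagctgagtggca
COX6B chrX:19744336-19744430, minus strand: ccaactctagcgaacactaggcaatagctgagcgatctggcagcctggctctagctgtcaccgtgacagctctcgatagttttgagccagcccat
These windows held 30.6% G and C for COX8, 21.5% for SdhC, 33.8% for ATPsynE, 29.8% for ND-51, 24.0% for ND-42, 29.8% for ND-MNLL and 54.7% for COX6B. The longest run was 13 bases, in ND-51. The ND-42 window is centred on the weaker of its 2 summits, ranked 2246 in the pooled reads and 18074 in replicate 3. Its stronger summit lay nearer to the start of another gene, Cchl. The other members of the 8 are ND-24 and ND-SGDH. The ND-24 summit lay inside an exon and its window is not shown, and ND-SGDH is shown next as a whole promoter. ND-B17 and ND-13A also had their own start nearest but ranked below these 8.

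The promoter shared by ND-SGDH and RhoGAP68F, transcribed away from each other, is shown because it holds 2 summits, and it was chosen after its values were seen. The 283 bases between the starts follow on the plus strand of dm6, with the 21 bases around each summit in capitals. ND-SGDH begins to their left and RhoGAP68F to their right.
ND-SGDH to RhoGAP68F chr3L:12138585-12138867, plus strand: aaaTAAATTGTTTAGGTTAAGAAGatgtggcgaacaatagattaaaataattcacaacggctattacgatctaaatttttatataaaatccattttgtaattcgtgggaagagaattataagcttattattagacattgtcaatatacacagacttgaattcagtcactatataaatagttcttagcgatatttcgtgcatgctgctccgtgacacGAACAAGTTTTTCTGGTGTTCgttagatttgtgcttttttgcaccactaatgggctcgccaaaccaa
The summit near ND-SGDH lay 14 bp upstream of its start, and the other lay 57 bp upstream of RhoGAP68F. Over 100 bp, the composition was 27.0% G and C around the summit near ND-SGDH and 45.0% around the other.

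Of the 84 genes, 14 were occupied (16.7%, Wilson 95% interval 10.2 to 26.1%, which covers the sampling of genes only). The background was 14.7% of all protein-coding genes, 2047 of 13968, so the share over all members was near the background and is not a result about the members. The 14 are all subunit genes, 14 of 63 (22.2%), and no paralog was occupied (0 of 21). A count of 0 was taken to allow up to 3 genes, here 14.3%, a rough limit apart from the Wilson interval and near the background. The same counts follow from protein-coding transcripts alone (14 members, background 14.7%). With a summit within 200 bp, 13 members were occupied (15.5%) against a background of 9.94%, and ND-ASHI dropped out. Within 1000 bp the count was 16 (19.0%) against 16.7%, with SdhA and UQCR-Q added. Within 2000 bp it was 21 (25.0%) against 20.6%, with ATPsynCF6, ATPsynD, COX7AL2, COX7C and ND-B22 added as well. When a start had to fall inside the peak interval, 13 members remained (15.5%) against 9.48%. Member peaks were 416 bp wide with the summit at the centre, so this rule was close to the 200 bp distance. When each summit counted only for the gene with the nearest start, 11 remained (13.1%) against 10.3%. COX5A, ND-ASHI and ND-MWFE went to the gene on the other side.

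By complex, the optimal list reached 9 of 34 complex I subunit genes (26.5%), 1 of 4 for complex II (25.0%), 3 of 8 for complex IV (37.5%) and 1 of 11 for ATP synthase (9.09%), beside 14.7% of all protein-coding genes. None of the 6 complex III genes was occupied, which by the same rough limit of 3 genes allows a share of up to 50%. With groups of this size, a single gene moves a share by many points. The longer relaxed lists, which hold peaks and background and have 30000 entries each, placed an entry within 500 bp of 59 members in the pooled reads (70.2%), against 50.8% of all protein-coding genes. The subunit genes had 53 of 63 (84.1%) and the paralogs 6 of 21 (28.6%). Every gene of complexes IV and V among the subunits had a pooled entry (8 of 8 and 11 of 11), as did 27 of 34 for complex I, 3 of 4 for complex II and 4 of 6 for complex III. Within 200 bp the pooled count was 49 members (58.3%) against 35.7% of all genes, and within 1000 bp it was 65 (77.4%) against 59.6%.

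**Figure D1:**
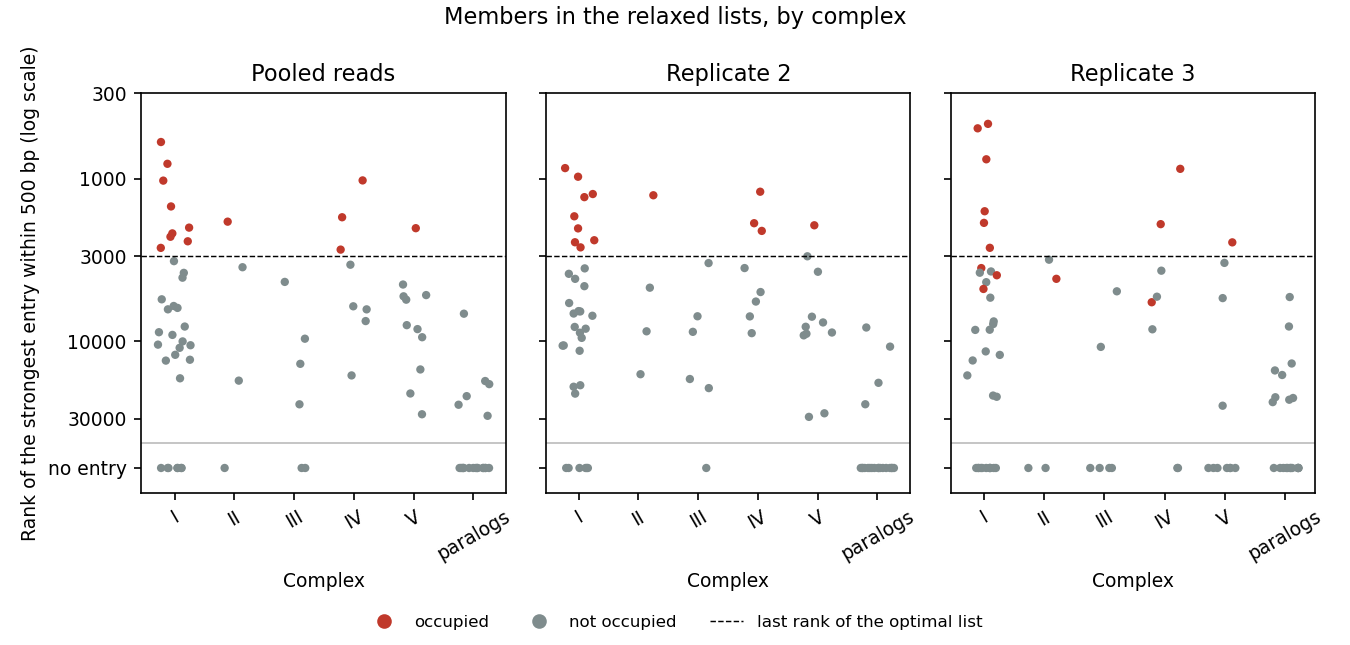
Rank of the strongest entry within 500 bp of each member, on a log scale with the strongest at the top, in the pooled, replicate 2 and replicate 3 relaxed lists, by complex and for the paralogs; each point is 1 gene, red where occupied. The 14 occupied genes lie above the dashed line at rank 2993 in the pooled list and in replicate 2, while 5 of them lie below it in replicate 3.

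The strongest summits belonged to complex I. ND-MWFE codes for a small subunit of the membrane arm. Its summit at 2R position 13158508, 158 bp upstream of the start, ranked 596 among 2993 pooled peaks, with the authors' signal value at 151. In the replicate lists the same peak had signal values of 79.6 (rank 862) in replicate 2 and 69.3 (rank 461) in replicate 3. The scaling of the signal value is not stated, so values are compared by rank within a list. ND-ASHI, another accessory subunit of the membrane arm, followed at rank 811 with a signal of 131, at X position 6679380. It ranked 974 with a signal of 74.7 in replicate 2 and 761 with 54.6 in replicate 3. The summit lay 262 bp from the nearest ND-ASHI start and 260 bp from that of Fum1, a fumarase of the tricarboxylic acid cycle. It sits midway between these 2 starts, which are 522 bp apart. The closest opposing starts of the 2 genes are 164 bp apart, so that pair does not enclose the summit.

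ND-24 and ND-51 code for the core flavoprotein pair that accepts electrons from NADH. Both were occupied, and both ranked higher in replicate 3. ND-24 ranked 1029 in the pooled reads (signal 117), 1705 in replicate 2 (55.7) and 491 in replicate 3 (67.4). Its summit, at X position 17632171, lay 82 bp downstream of the start, the only member summit whose nearest start of that member was upstream of it. ND-51 ranked 2171 in the pooled reads (75.6), 2646 in replicate 2 (42.9) and 1587 in replicate 3 (36.2), with a summit at 2L position 6062819, 62 bp upstream.

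The other occupied complex I genes code for accessory subunits. ND-42 had 2 summits, at 3R positions 22027401 and 22027604, ranked 1483 (signal 95.8) and 2246 (73.9). The stronger ranked 1300 in replicate 2 (64.9) and 1871 in replicate 3 (32.9). The weaker ranked 1458 in replicate 2 (60.9) but only 18074 in replicate 3 (10.8). ND-SGDH also had 2, at 3L positions 12138598 and 12138811, ranked 2001 (79.5) and 2617 (67.6). They ranked 1244 (66.5) and 2003 (50.8) in replicate 2, while in replicate 3 a single entry at rank 4765 (18.8) overlapped both. ND-MNLL at X position 7893891 ranked 2277 (73.3), with 2023 in replicate 2 (50.5) and 2663 in replicate 3 (26.3). The next genes both stood lower in replicate 3 than in replicate 2. ND-B17 at 2L position 15751232 ranked 2428 (70.6), with 2461 in replicate 2 (44.9) and 3926 in replicate 3 (20.8). ND-13A at 2L position 5100232 ranked 2665 (66.9), with 2392 in replicate 2 (45.7) and 3547 in replicate 3 (22.1).

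Outside complex I, 5 genes were occupied. SdhC, a membrane anchor of succinate dehydrogenase, had 2 summits at 3R positions 11209980 and 11210181, ranked 1839 (signal 84.1) and 2516 (69.2). The stronger ranked 1266 in replicate 2 (65.9) and 4129 in replicate 3 (20.3), and the weaker 2588 (43.4) and 9271 (14.2). Both were thus below the length of the optimal list in replicate 3. The complex IV genes COX5A, COX8 and COX6B code for nuclear subunits around the catalytic core. COX5A at 3R position 11819497 ranked 1026 (117), with 1204 in replicate 2 (67.4) and 871 in replicate 3 (50.4). COX8 at 3L position 21539563 ranked 1728 (87.6), with 1880 in replicate 2 (52.7) and 1905 in replicate 3 (32.6). COX6B, at X position 19744381, was the weakest occupied member, with rank 2731 (65.9), 2096 in replicate 2 (49.5) and 5751 in replicate 3 (17.2). The 3 genes span most of the range of the list, and COX5A and COX8 ranked alike in both replicates while COX6B did not. ATPsynE, for subunit e of the membrane part of ATP synthase, ranked 2017 (79.2), with 1936 in replicate 2 (51.8) and 2465 in replicate 3 (27.6). Its summit at 3R position 14326936 was 11 bp upstream of the start.

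**Figure D2:**
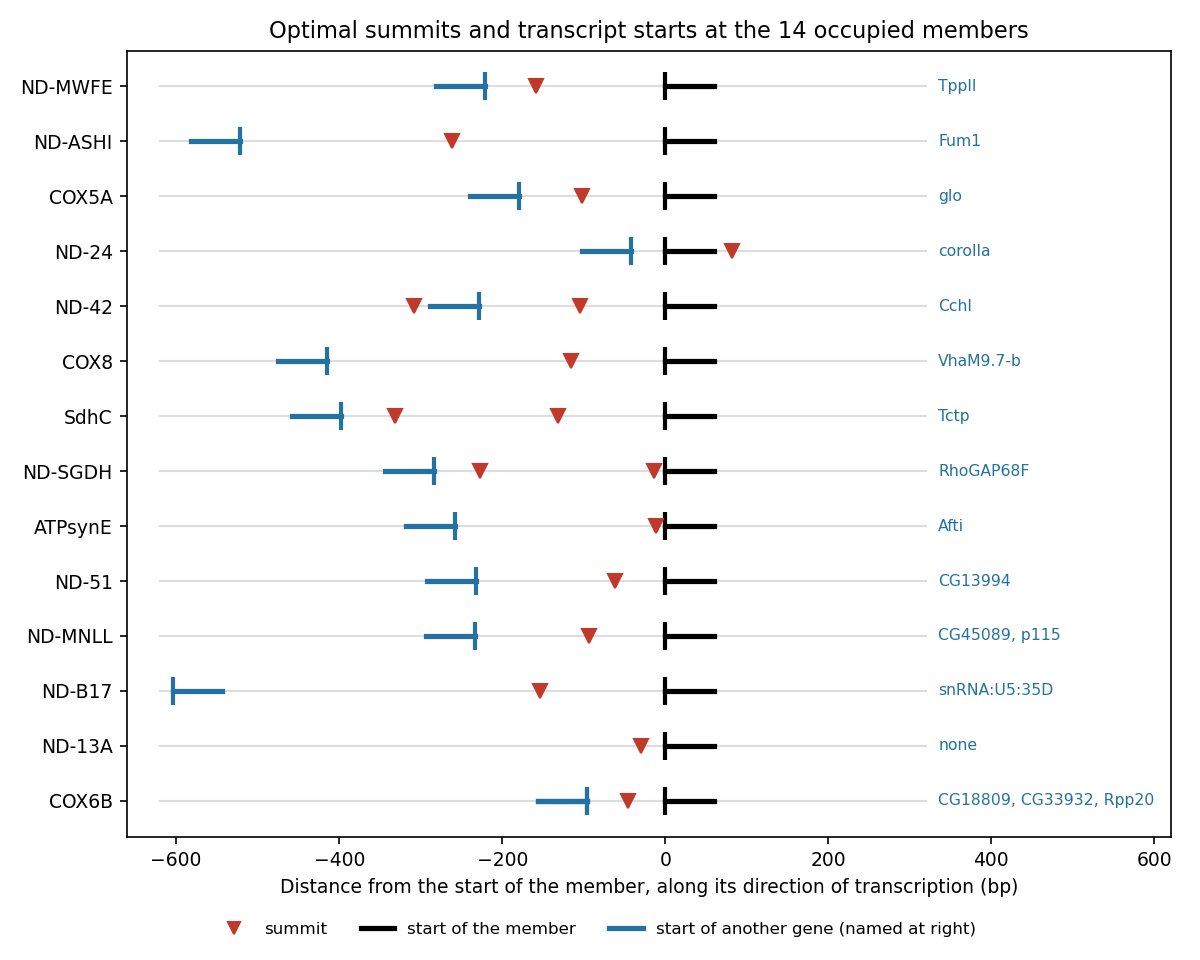
Position of the optimal summits (triangles) along the promoters of the 14 occupied genes, in bp from the member's start nearest to the summit, with transcription of the member to the right; blue marks are the nearest starts of other genes, named at right. For 12 of the 14, a start on the opposite strand lies to the left within the plotted range and the summits fall around or between the 2 starts; CG45089 and CG18809 begin at the same base as ND-MNLL and COX6B and are hidden behind the black mark.

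Most occupied members shared their promoter with a gene read from the other strand. A gene was called divergent when the start of another coding gene on the opposite strand lay at most 1000 bp upstream or overlapped by at most 100 bp. Of the 14 occupied members 13 were divergent (92.9%), against 1364 of 2033 other occupied genes (67.1%). Of the 70 members without a summit, 30 were divergent (42.9%), against 3661 of 11851 other genes without one (30.9%). The difference between subunits and paralogs was of the same kind: 40 of 63 subunit genes were divergent (63.5%) and 3 of 21 paralogs (14.3%), beside 36.3% of all protein-coding genes. Within divergent promoters the members were occupied in 13 of 43 cases (30.2%) and other genes in 1364 of 5025 (27.1%). Without such a neighbour, 1 of 41 members was occupied (2.44%), the gene ND-B17, against 669 of 8859 other genes (7.55%). These 41 include most of the 21 paralogs, none of which was occupied, so the 2.44% is not a share of subunit genes. Within divergent promoters the share of members was thus near that of other genes, and no test was made of these shares.

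**Figure D3:**
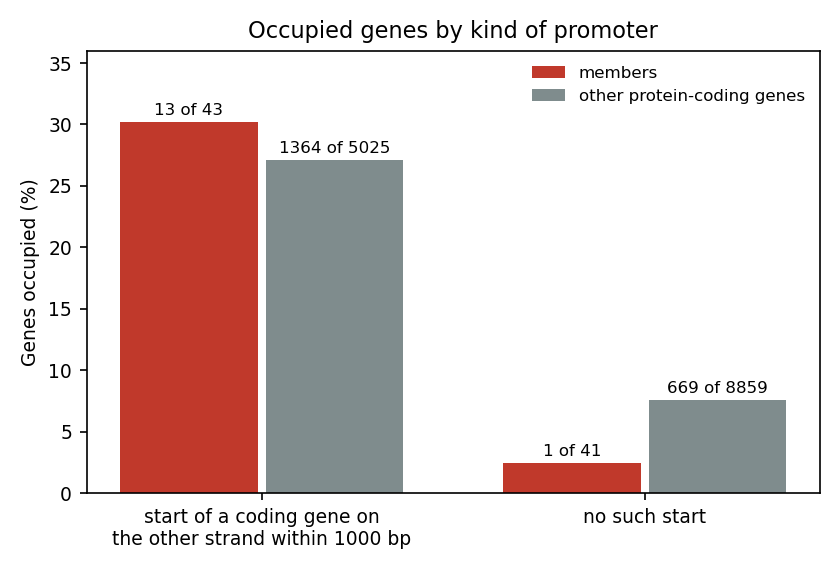
Percent of genes occupied, from 0, among genes with and without the start of a coding gene on the other strand within 1000 bp; red bars are the members, grey bars the other protein-coding genes, with the counts above. Within divergent promoters the bars stand at 30.2% and 27.1%, and without a divergent neighbour at 2.44% and 7.55%. The members include the paralogs, most of which have no divergent neighbour.

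For 12 of the 14 occupied members, a summit lay within 500 bp of another coding gene's start as well (85.7%), against 1274 of 2033 other occupied genes (62.7%). The lists cannot say to which gene of such a pair a summit belongs. The partners had varied roles. ND-24 shared its promoter with corolla, of the synaptonemal complex, 42 bp away start to start. COX5A was paired with glo, an RNA-binding protein gene, and the summit was 102 bp from the COX5A start and 77 bp from the glo start. ND-MWFE was paired with TppII, a peptidase, whose start at 63 bp was nearer than its own. COX8 faced VhaM9.7-b, a subunit of the vacuolar proton pump, at 415 bp, and SdhC faced Tctp at 398 bp. ATPsynE faced Afti at 258 bp, ND-51 faced CG13994 at 232 bp and ND-MNLL faced the Golgi tether p115 at 233 bp. COX6B lay 96 bp from Rpp20, an RNase P protein, and CG33932. At 2 promoters the neighbour also serves the mitochondrion: ND-ASHI with Fum1, and ND-42 with Cchl, which attaches heme to cytochrome c, at 229 bp. ND-13A was divergent to Msp300 at 589 bp but did not share the summit, and ND-B17 had only snRNA:U5:35D, on the same strand, at 450 bp from its summit.

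Across the 30 divergent members without a summit, the median distance to the opposite start was 221 bp, against 232 bp for the 13 occupied ones, so the width of the shared promoter was alike. Summits lay upstream of the nearest start for 13 of the 14 occupied members (92.9%), at a median of -97.5 bp and a range of -262 to 82 bp with the nearest summit of each member; the farther summits of ND-42 and SdhC lay at -308 and -332 bp. Other occupied genes had a median of -141 bp, with 90.5% upstream. Measured to the nearest start of any gene, the median over the members was -70.0 bp. A promoter with 2 or more summits was found for 3 of the 14 (21.4%), and for 163 of 2033 other occupied genes (8.02%). The 3 were ND-42, ND-SGDH and SdhC, with summits 203, 213 and 201 bp apart. At each of them 1 summit lay near the member and the other nearer to its partner: for SdhC at 131 bp upstream of SdhC and 66 bp upstream of Tctp, and for ND-42 at 105 bp upstream of ND-42 and 79 bp downstream of the Cchl start. Every member peak was 416 bp wide, so the 2 peaks of each pair overlapped, and whether they are separate sites was not tested.

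The replicates differed at these genes. All 17 member summits were among the 2993 strongest entries of replicate 2, and 9 of 17 were in replicate 3 (52.9%). For the other 1586 promoter summits, the shares were 88.0% in replicate 2 and 83.1% in replicate 3. Member summits had a median rank of 1880 in replicate 2 and 2663 in replicate 3, and the other promoter summits had medians of 1390.5 and 1338. By rank, 12 member summits stood higher in replicate 2 (70.6%) and 5 in replicate 3, while 45.7% of the other promoter summits stood higher in replicate 2. In the pooled list the member summits had a median rank of 2017 and the others 1349, so the member summits stood lower by the median. From replicate 2 alone, 14 members were occupied (16.7%) against a background of 14.7%, and from replicate 3 alone 9 were (10.7%), against 13.9%. The 5 lost without replicate 2 were COX6B, ND-13A, ND-B17, ND-SGDH and SdhC. In the stronger part of the optimal list, its upper 50%, 5 members remained (5.95%) against 8.17%: ND-MWFE, ND-ASHI, COX5A, ND-24 and ND-42. The lists give no depth, so the part of depth in these differences was not tested.

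**Figure D4:**
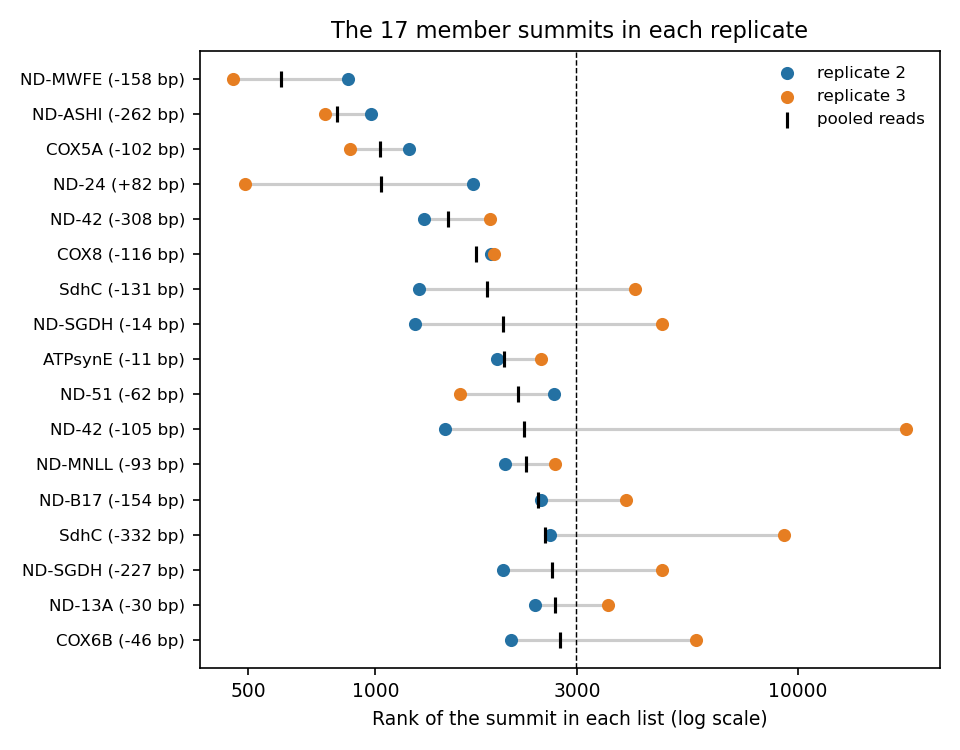
Rank of the 17 member summits, on a log scale, in replicate 2 (blue), in replicate 3 (orange) and in the pooled reads (black tick), with the distance of each summit from the member's start beside its name; the dashed line is rank 2993. All blue points lie left of the line, and 8 of the orange points lie right of it, the farthest being the weaker ND-42 summit at 18074.

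The replicates also differed below the threshold. The relaxed list of replicate 2 had an entry at 60 members (71.4%, against 53.1% of all protein-coding genes) and that of replicate 3 at 46 (54.8%, against 44.3%). An entry in both was found for 36 members, in replicate 2 only for 24 and in replicate 3 only for 10, and 14 members had none in any of the 3 lists. The ATP synthase subunit genes had an entry 11 of 11 times in replicate 2 and 4 of 11 times in replicate 3. Complex III had 5 of 6 and 2 of 6. The paralogs went the other way, with 4 of 21 in replicate 2 and 9 of 21 in replicate 3 (42.9%), while all subunit genes had 56 of 63 (88.9%) and 37 of 63 (58.7%).

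Just inside the end of the optimal list stood COX6B with a pooled rank of 2731 and a signal of 65.9, and just outside it ND-23, a core iron-sulfur subunit of complex I, with 3215 and 59.3. A further 10 members without a summit ranked within 6000 in the pooled reads. None of these 11 was among the strongest 2993 of either replicate. ND-23 ranked 3562 in replicate 2 and 3720 in replicate 3, and COX7B, a complex IV subunit, ranked 3546 and 3680 with a pooled rank of 3382. SdhD, the second membrane anchor of complex II, ranked 3504, with 4681 in replicate 2 and 3150 in replicate 3. The accessory gene ND-B22 ranked 3795, with 4130 in replicate 2 and 4330 in replicate 3. ND-23, COX7B and ND-B22 ranked alike in both replicates, and the others, SdhD included, differed more. ATPsynO, of the stalk of ATP synthase, ranked 5289 with 3002 in replicate 2 and 24862 in replicate 3. ATPsynD ranked 5546 with 3736 in replicate 2 and no entry in replicate 3, and ATPsynCF6 ranked 5197 with 8982 in replicate 2 and 3296 in replicate 3. ATPsynbeta, the catalytic subunit, ranked 4476 with 8826 in replicate 2 and 5424 in replicate 3. In the same order of lists, ND-30, a core subunit, had ranks of 4063, 9521 and 3787, UQCR-14 had 4313, 3304 and 10817, and ND-39 had 5518, 4582 and 21538.

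The remaining genes of a list of core and other central subunits ranked beyond 6000 in the pooled reads or had no pooled entry, beside a median of 6360 over the members with an entry. ND-75, the largest iron-sulfur subunit of complex I, had no entry in the pooled list or in replicate 2 and ranked 13108 in replicate 3. ND-49 ranked 12099 and ND-20 9129 in the pooled reads. SdhA, the flavoprotein of complex II, had an entry in replicate 2 alone at 15923, and SdhB ranked 17434 in the pooled reads. The core proteins of complex III, UQCR-C1 and UQCR-C2, ranked 24371 and 13745. COX4 ranked 16196 and COX5B 6360, while ATPsyngamma and ATPsynC, of the rotor, ranked 9434 and 7953. Of the 49 subunit genes without a summit, 39 had a pooled entry, at a median rank of 8411, and 10 had none. Members of the same enzyme therefore spanned the list from rank 596 to no entry.

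The member summits lay in AT-rich sequence between richer flanks. In the central 100 bp the 17 summits had a median of 29.0% G and C (range 22.0 to 55.0%), against 55.0% and 46.0% in windows centred 400 bp to the left and right. The centre was below the mean of its flanks at 16 of 17 (94.1%), the exception being ND-13A with 52.0% against 44.0%. Other promoter summits had 31.0% in the centre, 46.0% in each flank, and a lower centre at 1308 of 1586 (82.5%). COX6B, at 55.0%, had the richest centre but flanks of 59.0%. Of the 6 summits nearer to the start of another gene, the weaker SdhC and ND-SGDH summits held 44.0% and 45.0%, while those of ND-MWFE, ND-ASHI and COX5A and the stronger one of ND-42 held 28%, 30%, 29% and 32%. Runs of 7 or more A or T, as in the windows printed above, were in 16 of 17 member windows (94.1%) with a median of 3, and in 1469 of 1603 windows at all promoter summits (91.6%), also with a median of 3. In windows 400 bp to the left along the plus strand, a run was found at 5 of 17 (29.4%) and 922 of 1603 (57.5%). Runs on the right, where member flanks were less rich in G and C, were not counted. An AT-rich centre was thus found at other promoter summits as well.

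**Figure D5:**
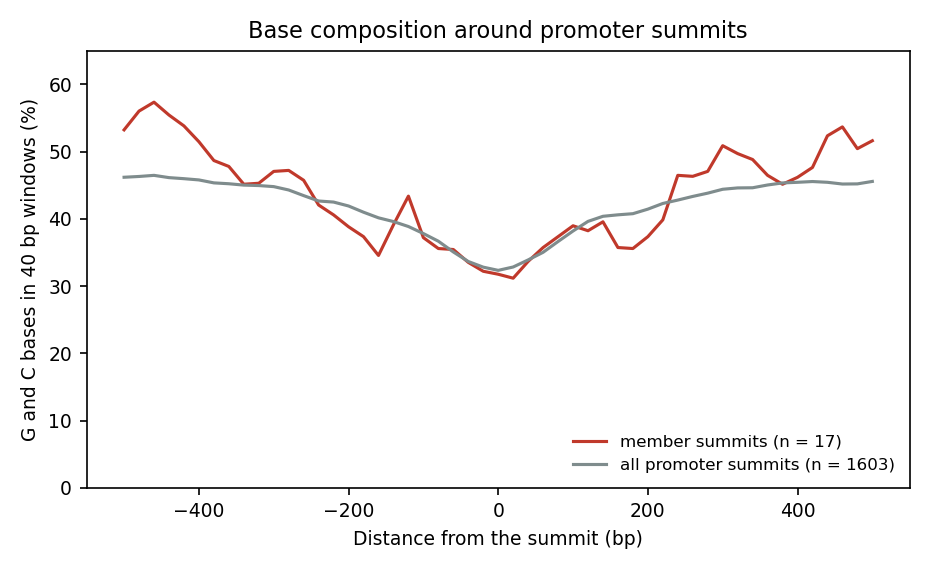
Mean G and C bases, in percent from 0, in 40 bp windows stepped by 20 bp, against the distance from the summit in bp along the plus strand; the red line is the 17 member summits and the grey line all 1603 promoter summits. At the summit the lines stand at 31.8% and 32.3%, 400 bp to the left at 51.5% and 45.8%, and 400 bp to the right at 46.2% and 45.4%. The red line is rough because it averages few summits.

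Short consensus sequences were searched on both strands from 250 bp upstream to 50 bp downstream of each gene's start. A match is a description and not a binding site. GGTCACAC, the core of the promoter motif read by the factor M1BP, was in 16 of 84 member promoters (19.0%), among them the occupied COX5A, ND-13A, ND-B17 and ND-MWFE, against 1074 of 13968 promoters (7.69%). In the windows at summits it was found at 1 of 17 member summits and at 1.81% of all 1603. The element called DRE, TATCGATA, was in 9 member promoters (10.7%), against 9.36% of all promoters. The E-box CAGCTG was in 20 (23.8%), against 17.6%, and in 2 of 17 windows, against 4.99%. Letters known from mammalian respiratory genes were not found in these windows. The core GCGCATGCG of sites for NRF1 and its fly relative ewg was in 0 of 84 (0.501% of all promoters), and the Ets letters CCGGAAG were in 0 of 84 (1.09%). The element described for fly nuclear respiratory genes, searched as TTACGTAA, TTATATAA, TTACATAA or TTATGTAA, was in 5 (5.95%), against 5.18%. Of these 5, ND-42, ND-MNLL and ND-SGDH were occupied, beside 14.7% of all protein-coding genes. The windows of ND-42 and ND-MNLL hold the element, 2 of 17 (11.8%), against 3.12% of all 1603. These few matches were not tested. TATAAA, which can overlap TTATATAA, was in 45 (53.6%), against 45.8%, and in 6 of 17 windows (35.3%), against 26.9%.

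Chain genes with other names were read from a list, with 19 of its names matched. Of these, 7 were occupied (36.8%, beside 14.7% of all genes). They included blw, the alpha subunit of ATP synthase and partner of ATPsynbeta, at rank 986 with 895 in replicate 2 and 1075 in replicate 3. The complex IV subunit genes cype (2611) and levy (2900) were near the end of the list, as was the assembly gene Coa8 (2571). Cchl shared the summits of ND-42, and Ccdc56 (2067) shared its summits with mtTFB1, a mitochondrial methyltransferase. Cyt-c-d, a cytochrome c gene, had the strongest, at rank 265 with 219 in replicate 2 and 434 in replicate 3, but the summit lay 402 bp downstream of its start, and its offset from the start of CG31808 was -168 bp. Of 14 matched genes listed with the tricarboxylic acid cycle, Idh and Men-b included, 5 were occupied (35.7%). They were Idh3g (158), Fum1 (811), mAcon1 (1812), Scsalpha1 (2796) and Idh3b (2917). Idh3g ranked 187 in replicate 2 and 144 in replicate 3, whereas mAcon1 ranked 7450 in replicate 2 and 567 in replicate 3. Of 14 matched regulators and genes for mitochondrial DNA upkeep, 4 were occupied (28.6%): PolrMT, the mitochondrial RNA polymerase (411), mtSSB (841), mtTFB1 (2067) and PolG2 (2541). The regulators ewg, srl and Ets97D were not.

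Beside these, mitochondrial ribosomal protein genes were occupied in 19 of 73 cases (26.0%), cytosolic ones in 42 of 92 (45.7%) and proteasome genes in 5 of 48 (10.4%). Over the 84 chain genes chosen by symbol, paralogs included, the share was 16.7%, between the proteasome and the mitochondrial ribosome. Over the 63 subunit genes alone it was 22.2%. The occupied chain genes had a median best rank of 1920, against 1302 over all occupied genes. Counting the strongest 2993 entries of each replicate, the chain genes numbered 14 in replicate 2 and 9 in replicate 3. Mitochondrial ribosomal genes numbered 19 and 17, cytosolic ones 49 and 28, and proteasome genes 5 and 3. Chain genes with other names numbered 5 in each replicate, cycle genes 4 and 5, and regulators and upkeep genes 4 and 3. All protein-coding genes numbered 2051 in replicate 2 and 1941 in replicate 3.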

How the data were processed

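The authors deposited peak lists from 2 biological replicates of 1 group. Per the notes among these files, each replicate and the pooled reads gave a relaxed list, called against 1 control. Comparing their ranks by the irreproducible discovery rate gave the optimal list. The 4 lists in build dm6 were used, and those in build dm3 were not used here. The optimal list held 2993 peaks, the same as the 2993 strongest pooled entries. The only unit used was the signal value per peak that the authors deposited, with its scaling not stated. Neither the aligner nor the peak caller is named, and their versions were not given in the sources used here. Depth is unknown because the lists hold no read counts.

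Peaks were ranked by signal value within a list, and positions are counted from 1. Ensembl release 115 gave 24111 transcript starts, and the RefSeq Release 6 assembly, which is dm6, gave the sequence. For an optimal summit, the replicate rank is that of the overlapping entry with the nearest summit. For a gene without one, it is that of the strongest entry within 500 bp. Counts are set beside all 13968 protein-coding genes, with no test, since genes and peaks are not replicates. The members and lists were chosen with earlier results of these data known. Named are every occupied member, members with a pooled rank within 6000, a list of core and other central subunits, their neighbours at the same summit, and occupied genes of the lists. Among the list names, 4 chain names (Coa3, SdhAF3, SdhAF4 and Ttm50), 3 cycle names and the name tam matched no gene. The pairing of summits with starts was tested on simulated summits placed at known distances, which checks the distance rule only and not the peaks. Alternatives were other distances, start rules, list parts, windows and single replicates. The tools were Python (3.11.15) with pysam (0.24.0), numpy (2.4.6), pandas (2.3.3), matplotlib (3.10.9) and scipy (1.17.1).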

Additional observations from a re-analysis of the deposited data

How the results depend on the processing

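The count of 14 occupied members stayed within 1.5 times under other distances, start rules and protein-coding transcripts. It fell to 5 in the stronger part of the optimal list, and leaving out 1 replicate gave 9 to 14 members, with 9 where replicate 2 was left out. The cause was not tested. Counts in the relaxed lists ran from 46 to 60 with 1 replicate left out. The median of 29.0% G and C was 24.0% in 50 bp windows and 33.5% in 200 bp windows, where other promoter summits had 32.0% and 34.0%. Of the values by complex, 50 stayed within that limit and 13 did not. Among those 13 is the count over the 63 subunit genes, which fell in the same way to 5 and 9. Depth is unknown, so what was not in a list was not detectable here and is not shown to be absent. No paired analysis was possible because there was 1 group.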

Other observations

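The occupied members lay on 5 chromosome arms. X held 4 of its 12 members, against 12.5% of all protein-coding genes there. 3R held 4 of 18, against 547 of 3421 there, and 2L held 3 of 16, against 15.4%. 3L held 2 of 19, against 16.1%, and 2R held 1 of 17, against 13.1%. Neither of the 2 on chromosome 4 was occupied, against 3.75%. No test was made of these shares.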
